A study of Homo sapiens with 16 samples.

Results

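TNIP1, which encodes the ubiquitin-binding protein ABIN1, and 8 other genes of the NF-κB pathway were followed in SK-N-BE(2) neuroblastoma cells carrying different forms of HIF-2α. The 9 genes were taken by symbol from a table of 63187 genes and all 9 passed the low-count filter, as did 19530 genes in all. TNIP1 was chosen by its group differences in these libraries: it was higher in cells with one of the HIF-2α forms, labelled cIDR, than in WT cells and in cells with the full-length protein, so these differences are given as values without a test. The other 8 genes were chosen for their place in the pathway: the subunits RELA, RELB, NFKB1 and NFKB2, the inhibitors NFKBIA (IκBα) and NFKBIB (IκBβ), and the regulators TNFAIP3 (A20) and TNIP2 (ABIN2).

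The 16 poly(A)-selected RNA-seq libraries fall into 4 groups of 4, and each group has 1 library in each of batches 1 to 4. WT are SK-N-BE(2) cells labelled wild type, FL are cells transfected with full-length HIF-2α, and NCTAD and cIDR are cells transfected with the forms that the design text writes ΔN-CTAD and Δc-IDR, while the labels give both names without the Δ. All groups are the same human cell line in the same medium with the same share of serum. Every library, those of batch 2 included, is labelled with the oxygen level of air. No agent is named, and ages do not apply to a cell line. The vector, the promoter driving HIF-2α, the time after transfection, clonality and any empty vector in WT cells are not stated in the labels, so that transfection and HIF-2α cannot be told apart in comparisons with WT. Nothing in the labels says what a batch shares, and whether the libraries of a group came from separate cultures is not stated; p-values therefore measure the spread between these libraries, which may be technical.

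Libraries held 38.6 to 56.1 M (mega) estimated counts. EPAS1, the gene encoding HIF-2α, checked the labels: the 4 WT libraries lay between 13.0 and 28.1 CPM (counts per 1 M counts of the library, scaled for composition) and the 12 transfected libraries between 1320 and 5852 CPM. Summed levels of 11 sympathetic neuroblast markers were 5066 to 6624 CPM, although TH, the enzyme that starts catecholamine synthesis, was at 0.856 to 10.2 CPM. Summed levels of 9 leukocyte markers were 1.16 to 2.31 CPM, with PTPRC at 0 in 12 of 16 libraries and MS4A1 at 0 in all 16. Batch 2 stood apart from the other batches over all genes and is treated separately below.

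NF-κB transcription factors are dimers of REL-family subunits. IκB proteins hold them in the cytoplasm until signals from tumour necrosis factor, interleukin-1 or Toll-like receptors lead to IκB degradation; in the non-canonical branch, p100, the NFKB2 product, is processed and RELB dimers are released. Several products of the pathway restrain it in turn: NF-κB induces IκBα, and A20 with its partners ABIN1 and ABIN2 acts on ubiquitin chains upstream of the IκB kinases. HIF-2α is a transcription factor of the hypoxia response and is studied in neuroblastoma for its link to immature, aggressive cells.

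Feedback genes of the pathway are known for κB sites close to their start sites, and short stretches around such sites are shown because genes that differed in opposite directions between batches, TNIP1 and NFKBIA, both carry one. The RefSeq promoter table (GRCh38.p14) matched 8 of the 9 genes, RELB being without an entry. Its windows of 250 bases upstream of the start site were searched on both strands for the NF-κB consensus. It was found in 5 of the 8 windows and in 9.96% of all 35116 windows of that length. Capitals mark the match, all lines read 5′ to 3′ on the strand of the match, and each is 30 bases long.
TNIP1 (chr5:151081057-151081086, minus strand): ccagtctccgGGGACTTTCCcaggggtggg
TNFAIP3 (chr6:137867182-137867211, minus strand): ggatttccacGGGACTTTCCaaagtcacgt
TNFAIP3 (chr6:137867194-137867223, minus strand): ttgtaggcccGGGGATTTCCacgggacttt
NFKBIA (chr14:35404811-35404840, plus strand): gtcaggctcgGGGAATTTCCaagccagtca
NFKBIB (chr19:38899931-38899960, plus strand): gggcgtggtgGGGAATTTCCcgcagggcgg
NFKB2 (chr10:102395674-102395703, plus strand): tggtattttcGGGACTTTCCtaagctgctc

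TNIP1, TNFAIP3 and NFKB2 shared the same 10 letters, GGGACTTTCC, and NFKBIA and NFKBIB shared GGGAATTTCC. The TNIP1 match lay 42 to 33 bases before the RefSeq start site on the coding strand, the NFKBIA match 81 to 72 bases before it on the other strand. NFKB2 held a second match farther upstream, and the NFKBIB match also reads as a match on the other strand, 1 base further on. No match was found in the windows of TNIP2, NFKB1 and RELA. ACGTG or GCGTG, the core letters that HIF proteins bind, stood in the windows of TNIP2, TNFAIP3, NFKBIB, NFKB1 and RELA and in 43.2% of all windows, and not in those of TNIP1, NFKBIA and NFKB2. In TNFAIP3 the letters CACGTG stand just upstream of the 2 κB matches. These are matches of letters, not measured binding, and a window without a match says nothing about more distant sites.

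In GENCODE 29 (GRCh38) TNIP1 spans chr5:151029945-151093577 on the minus strand, and its printed stretch lies within the gene, partly in a 5′ UTR exon of another TNIP1 transcript. Both TNFAIP3 matches lie likewise in a 5′ UTR of another transcript of the gene. NFKBIA spans chr14:35401511-35404749 on the minus strand, with its printed stretch just outside any gene, NFKB2 chr10:102394110-102402529 on the plus strand, NFKB1 chr4:102501329-102617302 on the plus strand and RELB chr19:45001430-45038198 on the plus strand. NFKBIB overlaps SIRT2 on the opposite strand by 163 bases, and TNFAIP3 and RELA overlap non-coding genes on the opposite strand. The libraries are stranded, but counting by strand is not given in the sources used here, so counts could include reads of partners. The TNFAIP3 partner averaged 0.25 counts per library against 26.8 for TNFAIP3. The RELA partner averaged 51.6 against 1869 and shares 9 bases with RELA. SIRT2 averaged 1632 against 2150 for NFKBIB.

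Levels of the 9 genes differed widely. On the TPM scale, which is per transcript length, the median over the 16 libraries was 41.9 for NFKBIA, 41.4 for NFKBIB, 31.0 for TNIP1, 26.9 for RELA, 19.0 for NFKB1, 15.3 for TNIP2, 6.15 for NFKB2, 2.89 for RELB and 0.186 for TNFAIP3. Neighbours from NFKBIA down to TNIP2 overlapped in their ranges, as TNIP1 did (23.3 to 68.8 TPM) with RELA (19.0 to 28.5 TPM). TNIP2 did not fall below 14.3 TPM, NFKB2 lay between 4.10 and 9.97 TPM, and RELB did not exceed 3.36 TPM. TNFAIP3 never exceeded 0.260 TPM and rested on 4 to 39 counts per library, so its differences carry large counting error.

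TNIP1 was higher in cIDR than in the other 3 groups in each of the 4 batches and lowest in WT in each of them. In WT it stood at 45.4, 74.3, 45.5 and 42.6 CPM in batches 1 to 4. In FL the values were 55.3, 89.1, 46.2 and 51.3 CPM. In NCTAD they were 64.3, 87.8, 50.1 and 54.8 CPM. In cIDR they were 73.2, 119.9, 62.7 and 64.7 CPM. Batch 2 was the highest library of every group, and the ranges of the 4 groups overlap when batches are ignored. Within batches 1, 3 and 4 the order from high to low was cIDR, NCTAD, FL and WT, and in batch 2 FL and NCTAD changed places.

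**Figure D1:**
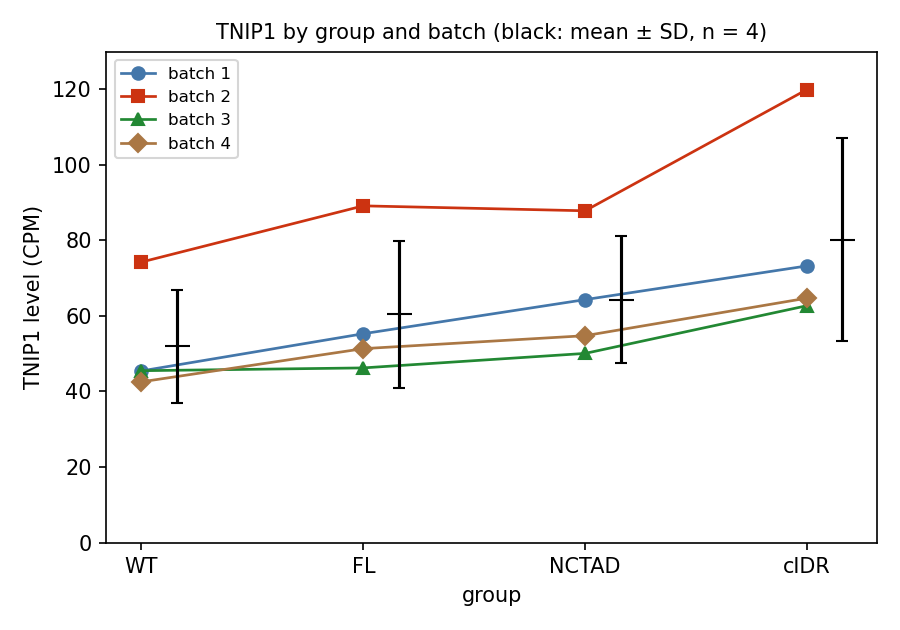
TNIP1 level in CPM (vertical axis, from 0) in the 4 groups; each line joins the libraries of 1 batch, and black bars give the group mean ± SD over 4 libraries. WT is the lowest and cIDR the highest point of every line, and the line of batch 2, from 74.3 to 119.9 CPM, lies above the others.

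The mean TNIP1 level was 51.9 ± 14.9 CPM for WT, 60.5 ± 19.4 for FL, 64.2 ± 16.8 for NCTAD and 80.1 ± 26.9 for cIDR (SD, n = 4 each). Set against the WT library of its own batch, the cIDR library was higher by 0.69, 0.69, 0.46 and 0.60 on the log2 CPM scale in batches 1 to 4, a mean of 0.61 ± 0.11 (SD, n = 4). The NCTAD libraries were higher than WT by 0.31 ± 0.16 and the FL libraries by 0.21 ± 0.12, both in 4 of 4 batches, with the FL library of batch 3 only 0.023 above WT. Between constructs, cIDR was above FL by 0.40 ± 0.047 and above NCTAD by 0.30 ± 0.11 in 4 of 4 batches, and NCTAD was above FL by 0.10 ± 0.098 in 3 of 4. A higher level in 4 of 4 batches held for 5.35%, 8.86% and 10.6% of all genes in FL, NCTAD and cIDR against WT, and for 4.9%, 4.38% and 6.02% in cIDR against FL, cIDR against NCTAD and NCTAD against FL; the choice of TNIP1 used these contrasts, so nothing is read from them here.

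The fitted log2 difference of TNIP1 between cIDR and WT was 0.63 ± 0.26 (SE) without a batch term and 0.61 ± 0.059 with the batch as a block. For NCTAD against WT the fit without a batch term gave 0.31 ± 0.26 and for FL against WT 0.22 ± 0.26. For NCTAD against FL it gave 0.086 ± 0.26. With the block these 3 values were 0.31 ± 0.059, 0.21 ± 0.059 and 0.10 ± 0.059. Leaving out a library of batch 2 with no batch term leaves the groups unbalanced over batches. Without a batch term the value for cIDR was 0.36 without the cIDR library of batch 2, and that for NCTAD was 0.12 without the NCTAD library and 0.53 without the WT library of that batch; for FL it was 0.44 without that WT library. Without the FL library of batch 2 the unblocked FL value turned to −0.027, and the unblocked NCTAD value against FL turned to −0.10 without the NCTAD library of batch 2 and to −0.023 without the FL library of batch 3. Standing lowest in WT and highest in cIDR in every batch was seen in 22 of the 19530 genes, or 0.113%; since the choice of TNIP1 used this contrast, nothing is read from that share.

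The EPAS1 level did not follow the same order over batches. Its lowest values in the transfected groups were 1691 CPM in the FL library of batch 1, 1320 CPM in the NCTAD library of batch 2 and 2189 CPM in the cIDR library of batch 2, so that in NCTAD and cIDR the library with the most TNIP1 had the least EPAS1. In WT the library of batch 2 had the most of both, with EPAS1 at 28.1 CPM against 13.0 to 17.3. Between groups EPAS1 averaged 2609, 2851 and 4484 CPM in the FL, NCTAD and cIDR libraries. A higher amount of EPAS1 RNA in cIDR and the different form of the protein cannot be told apart in these comparisons.

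The other 8 genes showed no call in any of the 6 group comparisons. With edgeR's quasi-likelihood test, 0 of the 8 reached a Benjamini-Hochberg adjusted p under 0.05, and 0 of 8 had an unadjusted p under 0.05; DESeq2 also called 0. Over all genes the test called 0.0102%, 0.0256% and 0.0102% against WT in the same order of constructs and 0% in each comparison between constructs, so that a count of 0 among 8 genes is near this background. An unadjusted p under 0.05 was reached by 1.14%, 1.42% and 1.37% of all genes in FL, NCTAD and cIDR against WT, and by 0.886%, 0.906% and 0.609% in NCTAD against FL, cIDR against FL and cIDR against NCTAD. With the batch as a block it called 0.102%, 0.456% and 0.486% of all genes against WT, 0.0307% in cIDR against FL, 0.00512% in cIDR against NCTAD and 0% in NCTAD against FL. In that fit, which the choice of TNIP1 used, the other 8 again gave 0 calls.

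TNIP2, the second ABIN gene, was the nearest to a difference. It stood at 18.8, 18.2, 17.7 and 17.4 CPM in WT and at 21.3, 22.0, 18.7 and 18.8 CPM in cIDR in batches 1 to 4. Each cIDR library was above the WT library of its batch, by 0.16 ± 0.084 on the log2 scale (SD, n = 4), and each NCTAD library by 0.078 ± 0.026, while FL was higher in 2 batches and lower in 2. Each cIDR library was also above the NCTAD library of its batch, by 0.082 ± 0.058. Being higher in 4 of 4 batches held for 10.6% of all genes in cIDR and 8.86% in NCTAD against WT. The fitted difference in cIDR was 0.16 ± 0.062 (SE) with the block, with an edgeR unadjusted p of 0.020 and an adjusted p of 0.753. In that fit 5.45% of all genes had an unadjusted p under 0.05, against 1 of these 8 genes.

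TNFAIP3, which encodes the partner of both ABIN proteins, was not called in any group comparison. Its range was 0.417 to 0.834 CPM for WT, 0.0971 to 0.697 for FL, 0.511 to 0.753 for NCTAD and 0.244 to 0.809 for cIDR, and its difference of cIDR from WT within batches was −0.35 ± 0.55 (SD, n = 4). In batch 1 against the other batches it was called lower, at −1.03 ± 0.32 (SE, edgeR adjusted p 0.0285), where 24.7% of all genes were called.

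The inhibitor genes differed little from WT. NFKBIA averaged 38.5 ± 6.70 CPM for WT, 41.3 ± 9.48 for FL, 38.5 ± 9.89 for NCTAD and 40.3 ± 8.83 for cIDR (SD, n = 4), and its differences from WT within batches were 0.087 ± 0.12, −0.024 ± 0.17 and 0.052 ± 0.11. For NFKBIB the differences were 0.077 ± 0.25, −0.043 ± 0.22 and −0.045 ± 0.14 in the same order. Each of these means was smaller than its SD, and the directions against WT were mixed across batches. Between constructs both were lower in NCTAD than in FL in 4 of 4 batches, with differences of −0.12 ± 0.032 for NFKBIB and −0.11 ± 0.12 for NFKBIA, where 5.21% of all genes were; neither was called.

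Among the subunit genes, NFKB2 was above WT in 4 of 4 batches in cIDR, by 0.13 ± 0.14, and in 3 of 4 in FL, by 0.17 ± 0.17, and in NCTAD, by 0.10 ± 0.18. On the log2(TPM + 1) scale the NFKB2 difference in cIDR was −0.042, so its direction depends on the scale used. That scale differs from log2 CPM in length correction, scaling and added constant, and their parts were not separated. RELA, the main activating subunit, differed from WT by −0.046 ± 0.11, 0.087 ± 0.083 and 0.041 ± 0.086 in FL, NCTAD and cIDR. NFKB1, the precursor of p50, differed by −0.066 ± 0.15, −0.054 ± 0.19 and −0.082 ± 0.11. RELB, at 1.87 to 4.94 CPM, differed by 0.15 ± 0.22, 0.16 ± 0.24 and 0.092 ± 0.13. Apart from RELA in NCTAD and NFKB2 in FL, each of these subunit means lay within 1 SD of 0, and on the log2(TPM + 1) scale RELA in NCTAD was −0.041 and NFKB2 in FL 0.0042. The fitted NFKB2 difference in FL, 0.18 without a batch term, ran from 0.029 to 0.29 with a library left out. Between constructs RELA was higher in NCTAD than in FL in 4 of 4 batches, by 0.13 ± 0.17, where 6.02% of all genes were.

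**Figure D2:**
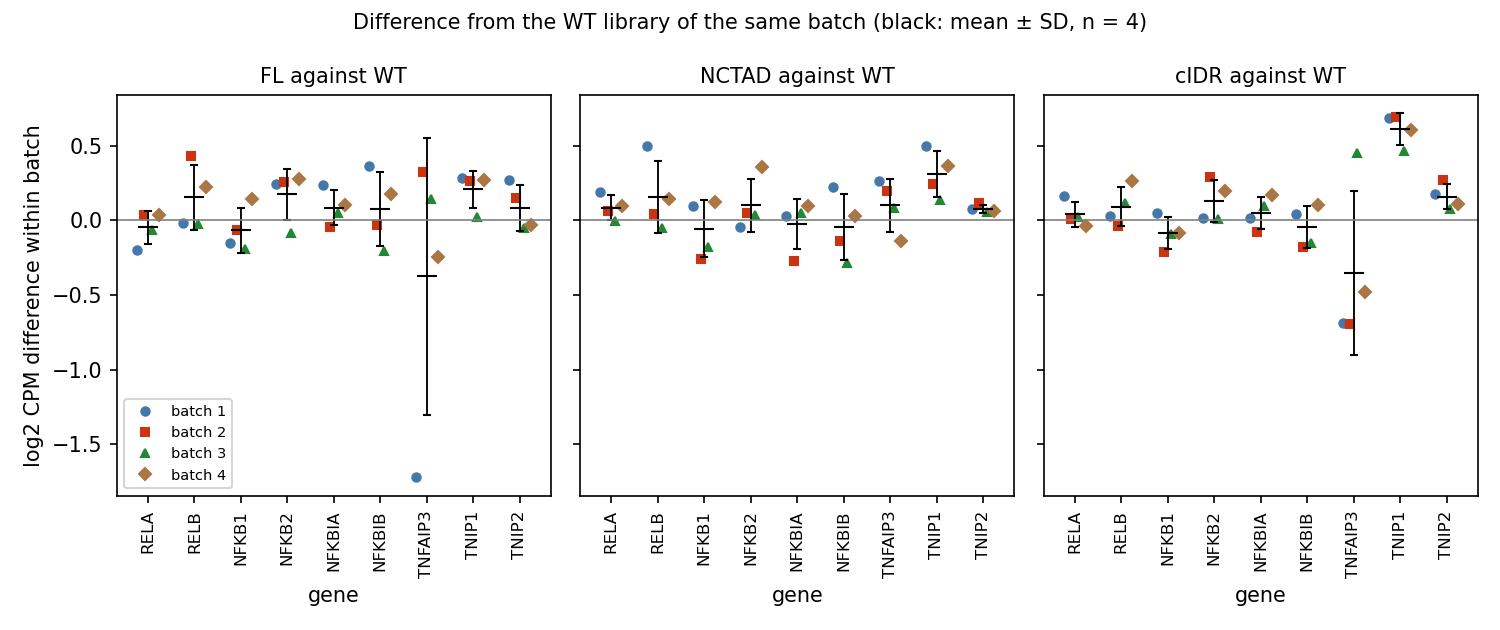
Difference in log2 CPM from the WT library of the same batch (vertical axis) for the 9 genes in FL, NCTAD and cIDR; points are the 4 batches and black bars the mean ± SD (n = 4). TNIP1 in cIDR lies between 0.46 and 0.69 in all 4 batches, TNFAIP3 scatters on both sides of 0, and RELB reaches 0.50 in NCTAD in batch 1.

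For TNIP1, NFKB2, NFKBIA, NFKB1 and RELB, the difference between batch 2 and the other batches was larger in size than any between groups. TNIP1 was 1.69 times and NFKB2 1.39 times as high in batch 2 as in batches 1, 3 and 4, and NFKBIA, NFKB1 and RELB stood at 0.611, 0.617 and 0.525 times their level there. The comparison holds the group fixed, since each group has 1 library in each batch. Batch 2 was singled out after it was seen to stand apart, it is 1 batch, and the p-values cover the spread between libraries, not between batches. Over all genes 53.9% were called in this comparison, 27.7% higher and 26.1% lower, against 24.7%, 16% and 13.4% when batch 1, 3 or 4 is set against the rest.

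TNIP1 was at 74.3 to 119.9 CPM in batch 2 and at 42.6 to 73.2 CPM in the 12 other libraries, so that the WT library of batch 2 was above even the cIDR libraries of batches 1, 3 and 4. The fitted log2 difference was 0.76 ± 0.046 (SE, edgeR adjusted p 5.79e-09). NFKB2 ranged from 11.5 to 14.1 CPM in batch 2 and from 7.53 to 10.6 CPM elsewhere, again without overlap, with a difference of 0.48 ± 0.069 (edgeR adjusted p 3.79e-05). Its call is lost on the TPM scale, where the difference was 0.25 with log2(TPM + 1) (limma adjusted p 0.321). The ratio of NFKB2 counts to TPM, which reflects the transcript length assumed in each library, varied 2.19-fold between libraries, and 4.36% of genes varied more.

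NFKBIA, the inhibitor that NF-κB itself induces, went the other way. It stood at 28.7, 27.8, 23.8 and 27.2 CPM in the WT, FL, NCTAD and cIDR libraries of batch 2 and at 39.9 to 49.8 CPM in the other 12, a log2 difference of −0.71 ± 0.054 (SE, edgeR adjusted p 5.75e-08). NFKB1 stood at 32.0, 30.7, 26.8 and 27.7 CPM in batch 2 and at 41.3 to 52.6 CPM elsewhere, a difference of −0.70 ± 0.064 (edgeR adjusted p 4.48e-07). RELB stood at 1.92, 2.60, 1.98 and 1.87 CPM in batch 2 and at 3.01 to 4.94 CPM elsewhere, a difference of −0.93 ± 0.12 (edgeR adjusted p 1.42e-05). None of these 3 genes overlapped between batch 2 and the rest, in contrast to the group comparisons.

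Smaller differences were seen in the remaining genes. NFKBIB was at 37.2 to 42.1 CPM in batch 2 and 40.0 to 61.8 elsewhere, with a fall of 0.27 ± 0.064 on the log2 scale (edgeR adjusted p 0.00268). That call is lost against batch 3 alone, where the difference was −0.14 (edgeR adjusted p 0.148). RELA was at 36.1 to 37.7 CPM against 33.8 to 44.3, a difference of −0.14 ± 0.052 (edgeR adjusted p 0.0395) that kept its call under 5 of 14 alternatives. TNIP2 and TNFAIP3 did not pass the test, with differences of 0.090 ± 0.050 and 0.016 ± 0.28 (edgeR adjusted p 0.142 and 0.967).

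In all, 7 of the 9 genes were called, 2 higher and 5 lower, and 5 of 9 did not overlap between batch 2 and the other libraries, where 29% of all genes did not (14.4% higher and 14.6% lower). The median log2 difference was −0.14 over the 9 genes and 0.035 over all genes tested. The share called is above the 53.9% of all genes, on 9 genes and with no test of that difference. Calls were not limited to batch 2, although each other batch was set against a rest that includes it. TNIP2, TNFAIP3, NFKBIA, NFKBIB and NFKB2 were called in batch 1, where 24.7% of all genes were. TNIP1, NFKBIA, NFKB1 and RELB were called in batch 3, where 16% were, and TNIP1, NFKBIA and NFKB1 in batch 4, where 13.4% were. NFKBIB differed more in batch 1 (0.32) than in batch 2 (−0.27). Batch 3 had RELB above all other libraries, with 4.40 CPM as its lowest value, where 0.302% of genes stood clear of the other libraries in either direction.

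**Figure D3:**
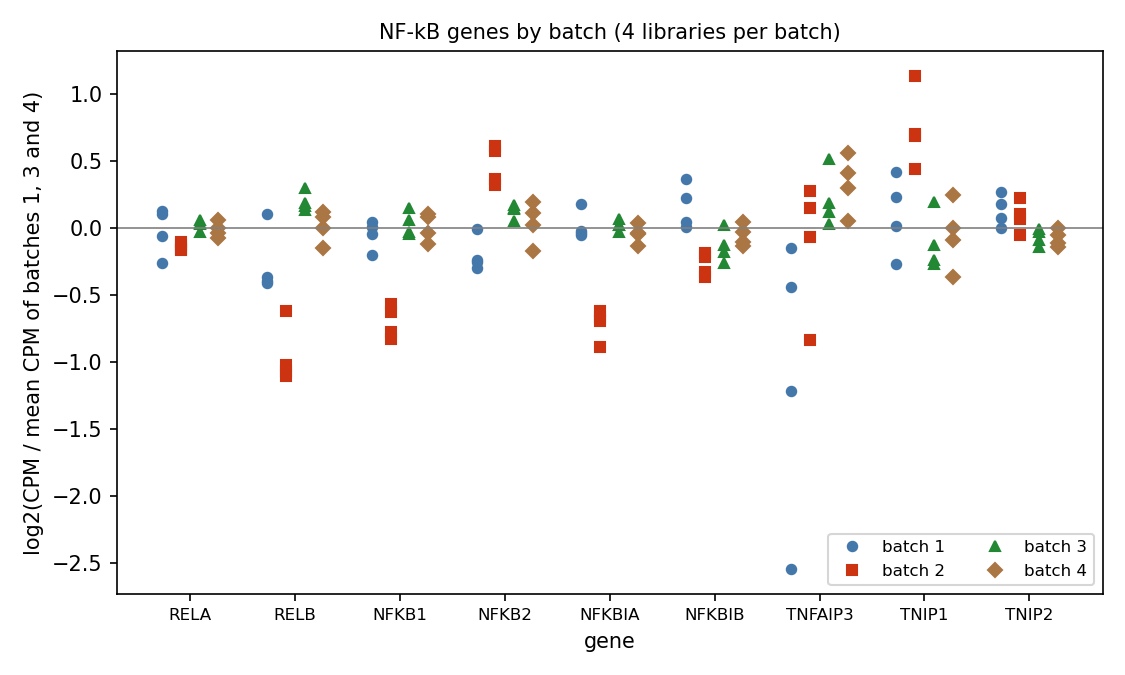
Level of each gene in each library as log2 of its CPM over the mean CPM of batches 1, 3 and 4 (vertical axis), with the 4 libraries of each batch as points. The squares of batch 2 lie above the other points for TNIP1 and NFKB2 and below them for NFKBIA, NFKB1 and RELB.

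A list of 40 further NF-κB signalling genes, receptors, adaptors, kinases and ubiquitin enzymes, showed 0 calls in each group comparison with or without the block, out of 36 tested. In batch 2, 11 of the 36 were called higher and 8 lower, 19 in all, with a median log2 difference of −0.054. That share is near the 53.9% of all genes called in this comparison, so the genes named next are given as values and not as a change of the list. The 4 with the smallest adjusted p were RIPK1, IRAK1, TNFRSF1B and CD40. RIPK1, the kinase recruited to the TNF receptor complex, was at 8.17 to 8.83 CPM in batch 2 and 14.6 to 16.7 CPM elsewhere, a log2 difference of −0.85 ± 0.052 (SE, edgeR adjusted p 7.45e-09). IRAK1, a kinase of interleukin-1 and Toll-like receptor signalling, was at 245.2 to 274.6 CPM against 351.1 to 460.9, a difference of −0.61 ± 0.050 (edgeR adjusted p 1.29e-07). TNFRSF1B, a TNF receptor gene, was at 2.18 to 2.49 CPM in batch 2 and 0.604 to 0.941 CPM elsewhere, a difference of 1.54 ± 0.12 (edgeR adjusted p 6.16e-08). CD40, a receptor gene of the same family, was at 1.66 to 2.06 CPM in batch 2 and 0.394 to 0.772 CPM elsewhere, a difference of 1.78 ± 0.17 (edgeR adjusted p 7.98e-07).

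**Figure D4:**
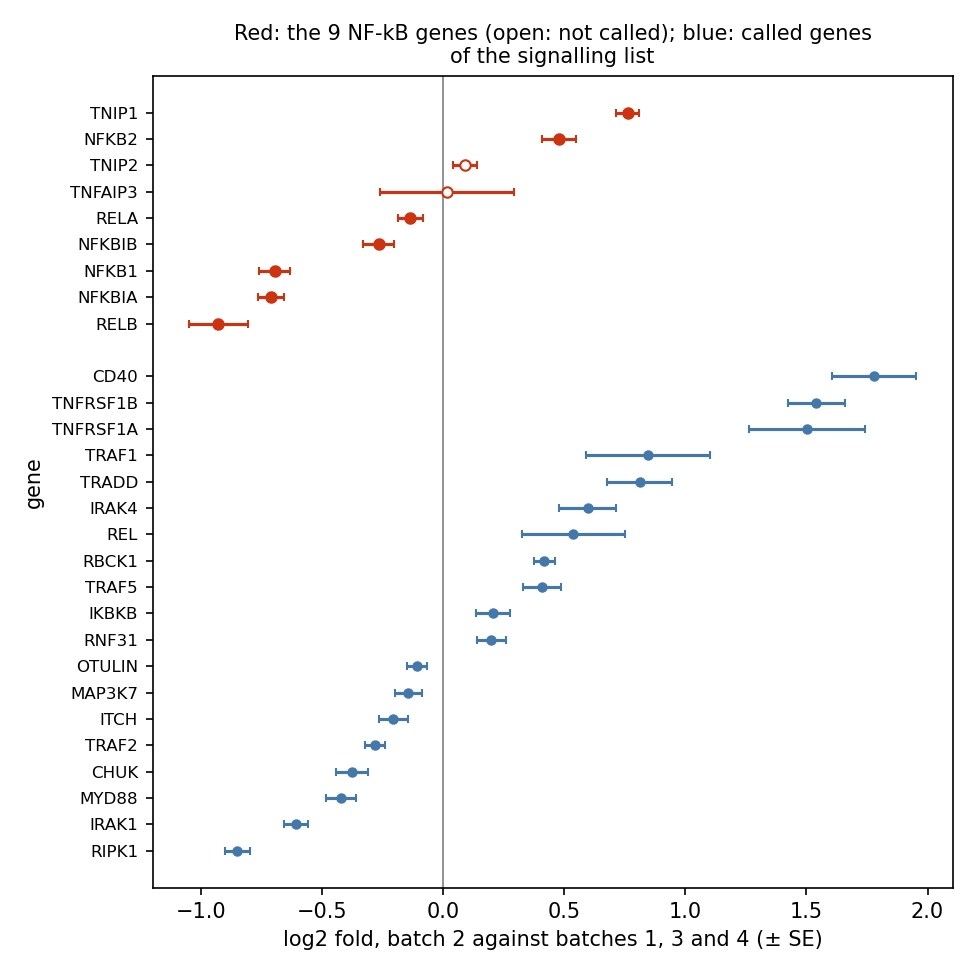
Log2 fold difference (horizontal axis, ± SE) between batch 2 and batches 1, 3 and 4 for the 9 genes (red, open where not called) and for the 19 called genes of the signalling list (blue). Both sets hold genes on each side of 0, from RELB at −0.93 to TNIP1 at 0.76 among the 9.

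Of 30 NF-κB target genes only 12 passed the low-count filter. The 18 others include the cytokine and adhesion genes CXCL8, IL6, TNF, CCL2, ICAM1 and VCAM1, and none of the 18 exceeded 13 counts in a library. No target was called in a group comparison. In batch 2, 5 of the 12 were called higher and 2 lower, against 27.7% and 26.1% of all genes, and the median log2 difference was −0.0057. IER3, an early response gene, was at 8.87 to 12.9 CPM in batch 2 and 1.78 to 3.03 CPM elsewhere, a difference of 2.35 ± 0.092 (edgeR adjusted p 5.61e-11). MMP9, a secreted protease, was at 0.940 to 1.60 CPM against 0.0452 to 0.263, a difference of 3.17 ± 0.30 (edgeR adjusted p 5.58e-07). It rested on 2 to 91 counts per library, so its low values carry large counting error and the size of its difference is uncertain. TNFAIP2 and BIRC3, an inhibitor of apoptosis, were higher by 0.69 ± 0.071 and 0.83 ± 0.13 (edgeR adjusted p 1.27e-06 and 8.14e-05). The 2 called lower, named after their values were seen, were CFLAR at −0.15 ± 0.047 and IRF1 at −0.34 ± 0.13 (edgeR adjusted p 0.0140 and 0.0411). The listed targets therefore stood on both sides of 0.

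Interferon response genes gave 0 calls in the group comparisons, out of 7 tested of 12 found. In batch 2, 3 of the 7 were called higher and 2 lower, where 27.7% and 26.1% of all genes were. IFI6 differed by 0.51 ± 0.091 and IFIT1, an antiviral effector, by 1.03 ± 0.18 (edgeR adjusted p 0.000242 and 0.000248).

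Some genes of the hypoxia response differed between groups, and most of those listed differed in batch 2. Of 16 listed genes, edgeR with the block called 1 higher in FL, 7 in NCTAD and 9 in cIDR against WT and 1 in cIDR against FL, and 0 lower; without the block it called 0. Of all genes, 0.0717%, 0.42%, 0.456% and 0.0307% were called higher in these comparisons. BHLHE40, a transcriptional repressor, was called in all 3 constructs, with log2 differences from WT of 0.78 ± 0.078, 0.93 ± 0.077 and 1.11 ± 0.078 in FL, NCTAD and cIDR (edgeR with the block, adjusted p 0.000308, 5.92e-05 and 5.79e-06). KDM3A, a histone demethylase, was the one listed gene called in cIDR against FL, at 0.39 ± 0.054 (edgeR with the block, adjusted p 0.0281). In batch 2, 14 of the 16 were called higher and 0 were called lower, against 27.7% and 26.1% of all genes, with a median of 1.09; SLC2A1 and LDHA were not called. PFKFB4 and PDK1, enzymes that adjust glucose use, were higher there by 2.24 ± 0.050 and 2.81 ± 0.085 (edgeR adjusted p 2.39e-13 and 4.65e-12). The summed level of the 16 had a range of 424.9 to 1005 CPM (median 467.5) for WT, 485.6 to 1419 (558.2) for FL, 677.3 to 1360 (705.1) for NCTAD and 649.9 to 1655 (672.8) for cIDR. It was higher in NCTAD than in cIDR in batches 3 and 4. In batches 1 and 2 it was higher in cIDR, at 678.8 against 677.3 CPM and 1655 against 1360 CPM. Taken gene by gene with the block, 13 of the 16 were higher in cIDR than in NCTAD and 3 lower, with a median log2 difference of 0.14. By batch the sum was 1005 to 1655 CPM in batch 2 against 424.9 to 719.8 CPM in the other batches. The part of this difference in the TNIP1 values was not tested.

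Markers of other cell types also differed between libraries. The summed level of 6 fibroblast or mesenchymal markers was 191.7 to 203.6 CPM in batch 2 and 92.3 to 136.2 CPM elsewhere. Of 5 tested markers 4 were called higher and 0 lower in batch 2, where 27.7% and 26.1% of all genes were. PDGFRB had the highest level of the 6, at 63.0 to 133.75 CPM over the 16 libraries. Among the collagen genes, COL1A1, which was called higher, did not exceed 6.44 CPM, and COL3A1 did not exceed 0.700 CPM. COL1A2 was at 0 in 13 of 16 libraries. The 4 endothelial markers summed to 1.17 to 2.34 CPM in batch 2 against 0.125 to 0.913 elsewhere. Of these, 2 of 2 tested were called higher, and PECAM1 was at 0 in 8 of 16 libraries. The 9 leukocyte markers summed to 1.75 to 2.31 CPM against 1.16 to 2.14, which overlap, with CD14 called higher (1 of 2 tested). The 4 Schwann cell markers summed to 5.25 to 6.15 CPM against 3.29 to 5.63, with S100B called higher (1 of 3 tested). Of 11 neuroblast markers, 5 were called higher and 5 lower in batch 2. Few markers differed between groups: edgeR called 0 without the block, and with it 1 of 2 tested endothelial and 2 of 11 neuroblast markers higher in cIDR against WT and 2 of 11 neuroblast markers higher in NCTAD against WT, where 0.456% and 0.42% of all genes were. With the block VWF, an endothelial gene, was higher in cIDR against WT by 1.65 ± 0.34 (edgeR adjusted p 0.0439). The neuroblast genes DBH and TH were higher in cIDR against WT, by 0.51 ± 0.066 and 1.06 ± 0.17 (edgeR adjusted p 0.00131 and 0.00953), and in NCTAD against WT, by 0.61 ± 0.067 and 1.27 ± 0.17 (edgeR adjusted p 0.000350 and 0.00220). The endothelial markers summed to 0.125 to 1.17 CPM in WT and 0.542 to 2.34 CPM in cIDR. The part of these differences in the values of the 9 genes was not tested, and in bulk RNA fewer cells of a type and less RNA per cell cannot be told apart.

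The genes whose levels were most like TNIP1 across the 16 libraries were ranked by 2 measures. After the mean of each batch was taken off, the highest Pearson r among 10114 genes was with ALDOA at 0.966, ALDOC at 0.952, PFKFB4 at 0.942, PDLIM2 at 0.932 and NOL3 at 0.916. ALDOA and ALDOC encode aldolases, PDLIM2 a PDZ-LIM protein and NOL3 a repressor of apoptosis. EPAS1 had r 0.762 and TNIP2, the closest of the other members compared, 0.711, while NFKBIA had 0.172 and NFKB1 −0.131. With no mean taken off, PDLIM2 (0.971), the transcription factor WT1 (0.961), the adenylate kinase AK4 (0.952), the phosphofructokinase PFKL (0.951) and ALDOA (0.948) were closest. The libraries share groups and batches, and these values describe the pattern only.

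The levels of these genes are a description, since their choice by likeness to TNIP1 fixes that they follow its pattern. PDLIM2 was above WT in cIDR by 0.69 ± 0.19 on the log2 scale within batches and AK4 by 1.79 ± 0.67, each in 4 of 4 batches (SD, n = 4). ALDOA was above WT by 0.32 ± 0.061 in 4 of 4 batches. In batch 2 PDLIM2 was at 16.4 to 25.6 CPM and at 6.14 to 12.1 CPM elsewhere, and ALDOC at 92.0 to 139.4 CPM and 20.4 to 48.1 CPM. NOL3 (23.7 to 35.6 CPM in batch 2, 20.2 to 28.1 elsewhere), ALDOA (1727 to 2242 and 1147 to 1735 CPM) and WT1 (10.8 to 18.6 and 5.47 to 12.6 CPM) overlapped.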

How the data were processed

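RNA from 16 samples of SK-N-BE(2) cells was sequenced as stranded poly(A) libraries, per the labels' protocols. The deposited table holds estimated counts per gene from Salmon, unscaled, and the deposited TPM table comes from the same run; per the submitters' processing notes fastp, STAR, Salmon and featureCounts were used with GRCh38. Their versions and the annotation release are not given in the sources used here. Column names call the line BE2c, FL wild type and WT control; groups follow the sample labels.

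Counts were rounded first, since 15.5% of the estimates were not whole. edgeR 4.0.16 (R 4.3.3) was run with TMM, filterByExpr by group and 1 quasi-likelihood model over the 16 libraries with group as the only term, and calls used a Benjamini-Hochberg adjusted p under 0.05 over all 19530 genes. The SE is the log2 difference divided by the root of F. CPM use TMM sizes, and log2 CPM a prior count of 2. Batch 2 was set against the mean of batches 1, 3 and 4 in a model with group and batch. Fits were tested on simulated data.

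In the labels the replicate number is also the batch, which pairs the libraries. Deviations from group means correlated at r 0.308 on average within a batch (0.0674 to 0.712) and −0.0945 between different batches and groups. By batch the average r was 0.197, 0.659, 0.206 and 0.170 in batches 1 to 4, so batch 2 raises the pooled value. Replicates were not copies (chi-square per degree of freedom at least 6.96). Alternatives were the block, DESeq2 1.42.0, other size factors and filters, limma 3.58.1 on TPM, and libraries or batches left out. A count of 0 allows up to 3 counts, for counting error only.

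The 9 genes and all lists were chosen with earlier results of these data known. Genes named outside the 9 are EPAS1, at most 4 called genes per list and comparison by smallest adjusted p, and the 5 closest to TNIP1 by each measure of likeness, among genes with a mean log2 CPM of at least 3; other list genes are named to show levels or where a count is small, chosen after their values were seen, and 1 gene the rule names is not reported here. Positions come from GENCODE 29 and sequences from RefSeq. Plots used matplotlib 3.10.9 (Python 3.11.15).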

Additional observations from a re-analysis of the deposited data

Results flagged for a closer look

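For each of the 9 genes, the 4 libraries of each group were examined for a single library far from the other 3, measured as its gap to the nearest library over the range of the group. Of 36 such sets 6 had one, and chance gives about 1 in 20. In 5 of the 6 the library was that of batch 2. These were the WT library for TNIP1 (74.3 CPM, highest of 4), the NCTAD library for NFKBIA (23.8 CPM), NFKB1 (26.8 CPM) and RELB (1.98 CPM), each the lowest of 4, and the FL library for NFKB2 (13.8 CPM, highest of 4). The sixth was the FL library of batch 1 for TNFAIP3, the lowest of 4 at 0.0971 CPM, which rests on 4 counts.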

How the results depend on the processing

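With the batch as a replicate block, which pairs the libraries, the number of the 9 genes called rose from 0 to 1 in cIDR against FL, in cIDR against WT and in NCTAD against WT, the gene being TNIP1 each time, and it changed no other call. With each library left out, the number was 0 to 1 in cIDR against WT and in NCTAD against WT and 0 in cIDR against FL. With the block the NCTAD call was lost in all such fits but those without the WT library of batch 3 or the NCTAD library of batch 2, and the call against FL in all. TNIP1 was chosen by its calls in this fit, so nothing is read from those that remain. Without batch 2 and with the block, 1 gene was called in cIDR against WT and 0 in NCTAD against WT and cIDR against FL. These fits hold fewer libraries, and the cause of the losses was not tested. In batch 2 against the others TNIP1, NFKBIA, NFKB1 and RELB kept direction and call under 14 of 14 alternatives each, and 6 to 7 genes were called with a library of batch 2 left out. TNFAIP3 turned to −0.0032 with log2(TPM + 1), −0.0053 with log2(TPM + 0.1), −0.32 against batch 3 alone and −0.41 against batch 4 alone, and ranged from −0.24 to 0.20 with a library left out. TNIP2 was −0.045 against batch 1 alone and was called with log2(TPM + 1) at 0.17, with log2(TPM + 0.1) at 0.18 and against batch 4 alone at 0.16. With a library left out and no block, TNIP1 ranged from −0.027 to 0.44 in FL against WT and from −0.10 to 0.33 in NCTAD against FL. With a whole batch left out, its mean difference from WT within batches ranged from 0.19 to 0.27 in FL, 0.25 to 0.37 in NCTAD and 0.58 to 0.66 in cIDR, as a description. TNFAIP3 is limited by its 4 to 39 counts per library. Choices added after seeing the data concern only the differences within batches, and TNIP1 there kept its direction in each.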

Other observations

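The implied length of NFKB2, the ratio of its count to its TPM relative to its geometric mean over libraries and with each library centred on its median gene, ranged from 0.601 in the cIDR library of batch 4 to 1.32 in the FL library of batch 4, a 2.19-fold range. The ratio varied 1.07-fold for TNIP1 and 1.03-fold for NFKBIA, and 1.15-fold at the median over genes. A comparison of NFKB2 between libraries therefore depends on whether counts or TPM are used.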
